A study of Mus musculus with 3 samples.

Results

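Cluster 10 of the deposited cell labels, a small group of glial cells from the iridocorneal angle and limbus of the mouse eye, was taken as the cells that carry this label among those kept by the authors. It held 356 of 26008 kept cells (1.37%), and 13 of the 35 labels held fewer. The tissue came from control mice (genotype *Angpt1* flox/flox) and from *Angpt1*ΔNC mice (*Angpt1* flox/flox;Wnt1Cre+), all of mixed strain, crossed onto albino ICR mice, and aged 6 weeks. Cells of several mice were pooled into each of 3 droplet libraries, 2 of control and 1 of *Angpt1*ΔNC, so that the library is the replicate and the mutant group has a single one. Wnt1-Cre acts in the neural crest, the embryonic source of peripheral glia and of melanocytes, so the deletion takes place in the glial lineage itself as well as in the stroma around it. The counts are unique molecular identifiers (UMIs), which mark single captured RNA molecules. A level is the mean over cells of UMIs per 10,000 UMIs of the cell, and CPM is the summed count of a library per 1000000 UMIs after TMM scaling. Where 3 values follow each other without names, they stand for control replicate 1, then control replicate 2, then *Angpt1*ΔNC.

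The anterior segment of the eye is densely innervated, and its nerves are ensheathed by Schwann cells, which arise from the neural crest and keep the transcription factor SOX10. Myelinating Schwann cells wrap single large axons in compact myelin made with PMP22 and MBP, while non-myelinating (Remak) Schwann cells hold bundles of thin axons and carry cell adhesion molecules, the neurotrophin receptor NGFR and often the filament protein GFAP. Astrocytes are glia of the central nervous system, known by the water channel AQP4, the enzyme ALDH1L1 and glutamate transporters, and share GFAP and S100B with Remak cells.

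The control libraries gave 138 and 148 of the cells, and the *Angpt1*ΔNC library gave 70. As a share of all kept cells these were 1.52% (95% exact interval 1.28 to 1.79), 1.46% (1.23 to 1.71) and 1.03% (0.807 to 1.30). The share of *Angpt1*ΔNC was 0.694 of the control mean, against a ratio of 1.04 between the controls, but 2 libraries against 1 cannot reach significance in an exact test and the upper end of its interval lies above the lower end of both control intervals. Intervals cover counting error only. The glial cells were shallower than the rest, with a median of 3881.5, 4399 and 3714.5 UMIs against 6387, 6437.5 and 7494 in all other kept cells, and they held 537535, 661429 and 249660 UMIs in all. No glial barcode occurred in more than 1 library. *Xist* was counted in 46 of the 70 glial cells of *Angpt1*ΔNC and in none of either control, although the pools are described as holding both sexes, so sex and genotype cannot be told apart in genes that differ between the sexes. The targeted gene *Angpt1* was barely detected in these cells. Its UMIs in the glial cells numbered 0, 2 and 0, whereas all other kept cells held it at 0.576, 0.528 and 0.00338 UMIs per 10,000. Of its pathway, *Angpt4*, the receptors *Tek* and *Tie1*, and *Svep1* had no UMI in any glial cell, and none of the 7 listed genes passed the filter for testing.

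The genes that led the cluster were those of Schwann cells. Ranked by the fold of the level over all other kept cells, the first 20 held *Egfl8*, with 12.8, 12.9 and 8.04 UMIs per 10,000 against a mean of 0.0357 elsewhere, the myelin gene *Mbp* with 13.2, 20.2 and 10.7 against 0.0849, *Gfra3*, *Gfap* and *Scn7a*. They also held the potassium channel gene *Kcna1*, *Fgf5*, *Fabp7*, the adhesion genes *Chl1* and *Cadm4*, the myelin enzyme gene *Cnp*, *Klk9*, *Fcgr2b*, *Gatm*, *Gldn*, *Nrn1*, *Adam23* and *Gpm6b*. The 3 markers given for this cluster, *Mbp*, *Gfap* and *Scn7a*, all stood among the first 6. *Gpm6b* was found in 93.8% of glial cells, *Egfl8* in 80.6%, *Scn7a* in 69.1% and *Gfap* in 47.2%. Of the limbal and corneal epithelial cells, which should lack *Scn7a*, 0%, 0.198% and 0.549% carried it. Other leading genes were less clear by this measure, as *Mbp* was found in 41.2%, 41.1% and 37.98% of these epithelial cells against 69.6%, 63.5% and 51.4% of glial cells, and *Chl1* in 50.7%, 35.7% and 17.0% against 74.6%, 66.9% and 41.4%. With every cell thinned to 1000 UMIs, *Mbp* was found in 3.44%, 3.95% and 4.06% of epithelial and 39.9%, 40.5% and 32.9% of glial cells. Since the clusters were made from these same cells, the folds are a description without a test.

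All 14 genes of the Schwann lineage core reported here were detected in at least 10% of glial cells, as were 13 of the 15 genes of the myelinating list and all 12 non-myelinating genes. At least 2-fold above all other kept cells were 13, 15 and 11 genes of these lists, 2 of the 15 myelinating genes (*Ugt8a* and *Fa2h*) being below 10% of cells. Among all 4585 genes detected in at least 10% of glial cells, 12.3% were 2-fold higher. The astrocyte list gave 5 of 15 genes detected and 2 at 2-fold, *Gfap* and *Acsbg1*. Of its members, *Aqp4*, *Aldh1l1*, *Slc1a2*, *Gjb6*, *Pax2* and *Slc7a10* had no UMI in any of the 356 cells, which allows a share of up to 0.843% of cells with a UMI for each, and *Slc1a3*, *Aldoc* and *Sox9* had 4 UMIs or fewer over all libraries. The oligodendrocyte list had 6 of 10 genes at 0, with *Aspa* alone above 10% of cells, and the Müller glia list had no gene at 2-fold. The study called these cells astrocytes. Their markers are those of glia, and of the Schwann lineage within it. Of the astrocyte markers, *Aqp4*, *Aldh1l1* and the glutamate transporter genes *Slc1a2* and *Slc1a3* were at or near 0, while 5 of the 15 listed genes were detected.

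**Figure D1:**
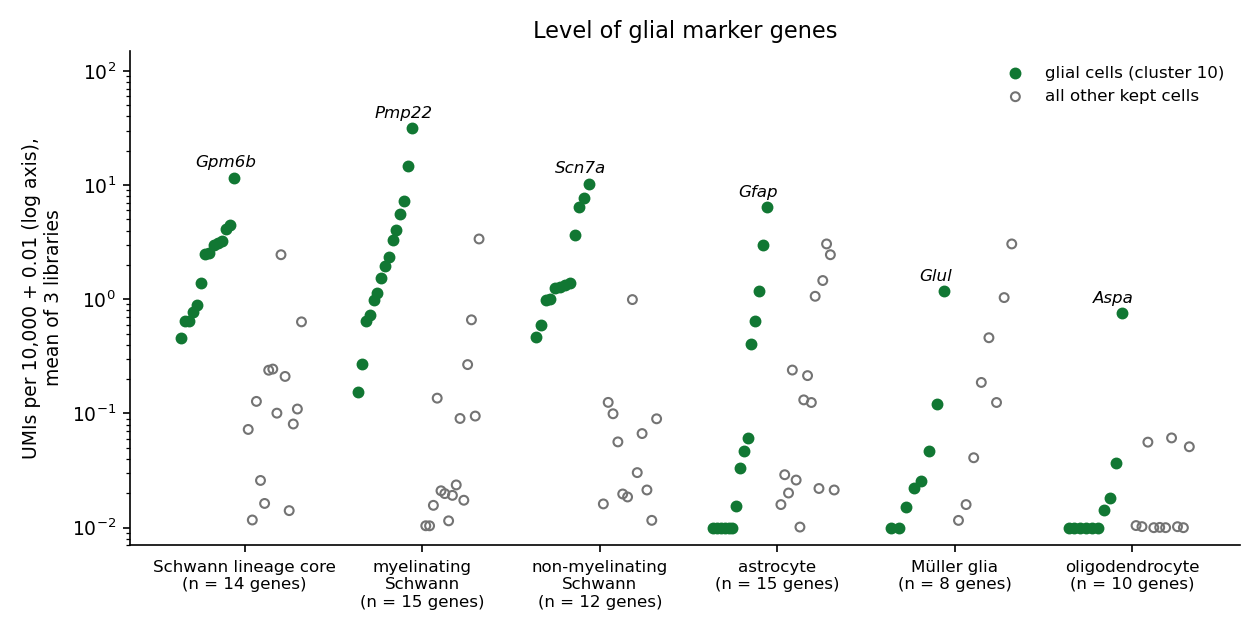
Level of each gene of 6 glial marker lists, in UMIs per 10,000 plus 0.01 on a log axis as the mean of the 3 libraries, in the glial cells (filled) and in all other kept cells (open), with genes of a list ordered from left to right by their level in glial cells. The 3 Schwann lists lie between 0.145 and 31.6 UMIs per 10,000 in glial cells, whereas 6 astrocyte genes and 6 oligodendrocyte genes lie at 0, drawn at the bottom of the axis.

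Cluster 10 was the label with the highest level for most of these genes, and some exceptions were higher in melanocytes, the other neural crest lineage with *Sox10*. *Sox10* itself reached 1.39 UMIs per 10,000 in cluster 10 (rank 3 of the 35 labels) and 1.79 in the melanocyte cluster 9. *S100b* was 2.97 in cluster 10 and 17.9 in melanocyte cluster 8. *Kcna1* (3.26 against 0.0334), *Fabp7* (4.09 against 0.339) and the Schwann cell ligand *Dhh*, which organises the sheath around nerves (0.636 against 0.0497), were each far above the next label. *Erbb3*, the neuregulin receptor that Schwann cells depend on, was low at 0.445 and ranked after cluster 3.

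Schwann cells hold axons by adhesion molecules and stand on a basal lamina. Of 13 node and adhesion molecules 10 were detected and 10 were at least 2-fold above all other kept cells. All 15 genes of the basal lamina and its receptors were detected and 9 were at 2-fold, with 24.2, 22.9 and 22.6 UMIs per 10,000 summed. Among trophic factors, *Gdnf*, a survival factor for motor, sensory and enteric neurons, stood at 5.32, 4.39 and 4.89 UMIs per 10,000 against a mean of 0.434 elsewhere, and no other label had more. Of the 10 genes of the repair programme that Schwann cells take up after nerve injury, 5 were detected, namely *Jun*, *Sox2*, *Gdnf*, *Fgf5* and *Runx2*, while *Shh* and *Olig1* had no UMI and *Artn*, *Bdnf* and *Gal* were in at most 4.21% of cells. The dissociation stress list, which holds *Jun* too, summed to 161, 103 and 104 UMIs per 10,000 in the glial cells and to 107, 94.6 and 77.2 in all other kept cells, and its part in the level of *Jun* was not tested.

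Myelinating and non-myelinating genes were highest in different cells of the cluster. Clustering the glial cells alone gave 5 subclusters at a resolution of 0.5, of which subcluster 1 held 77 cells, and it was the same 77 cells at resolutions of 0.3 and 1.0, which gave 4 and 7 subclusters. The summed level of the 15 myelinating genes in a cell of subcluster 1 had a median of 313, 277 and 244 UMIs per 10,000, with a range from 124 to 561 over all its cells. In the other glial cells the median was 16.9, 14.8 and 12.3, with 204 as the highest value. *Scn7a* (chr2:66673425-66784914, GRCm38), a sodium channel gene of non-myelinating Schwann cells, was found in 1 of the 77 cells of subcluster 1 (1.30%) and in 245 of the 279 others (87.8%). By library these were 0 of 22, 1 of 38 and 0 of 17 cells of subcluster 1, against 98 of 116, 98 of 110 and 49 of 53 others. The subclusters were made from these same genes among others, so this is a description without a test.

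**Figure D2:**
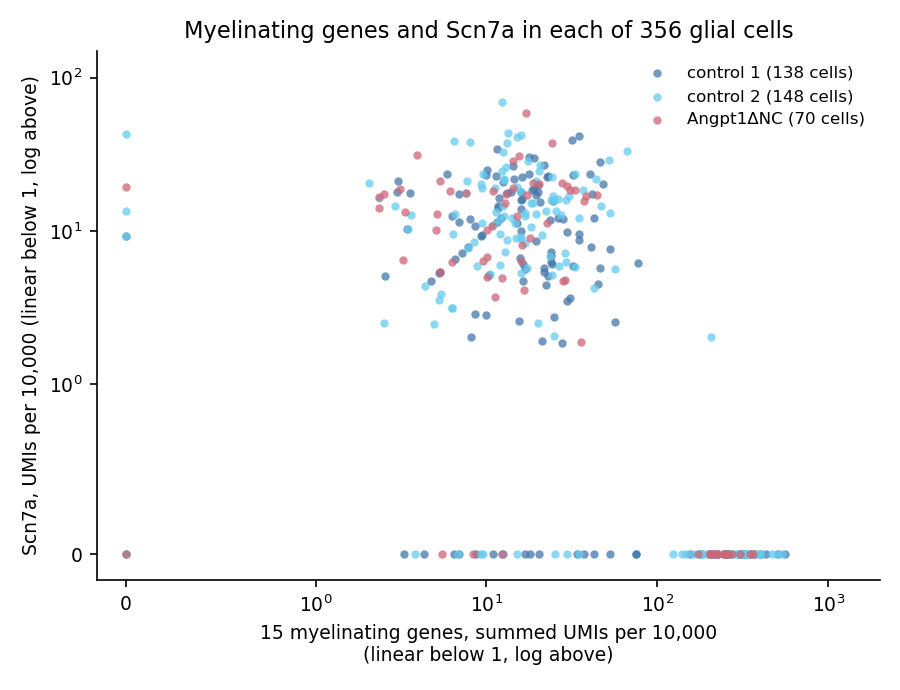
Summed level of 15 myelinating genes (horizontal axis) and level of *Scn7a* (vertical axis) in each of the 356 glial cells, as UMIs per 10,000 on axes that are linear below 1 and logarithmic above, with cells coloured by library. Of the 77 cells of subcluster 1, which lie to the right at 124 or more, 1 has *Scn7a* and the rest lie at 0, whereas 245 of the 279 other cells have it.

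The leading genes of subcluster 1 against the other glial cells included *Ncmap*, *Gjb1*, *Cldn19*, *Pllp* and *Prx* of the myelinating list, and *Mt3*, *Emid1*, *Fxyd6* and *Fxyd3*. *Pmp22* made up 117 UMIs per 10,000 in these cells, *Mbp* 60.1, *Mal* 22.3 and *Ncmap* 18.2. Remak genes were low in these cells. *Scn7a* (0.0263), *Gfra3* (0.0611) and *L1cam* (0.0259) were nearly absent, whereas *Gfap* stood at 0.925 (9.09% of cells), *Chl1* at 0.664 (14.3%) and *Ngfr* at 0.499 (14.3%), against 1.32 to 20.4, 4.11 to 5.62 and 0.898 to 3.49 in the other subclusters. *Gpm6b* was a gene both kinds shared, at 9.77 UMIs per 10,000 in subcluster 1 and 8.32 to 13.2 in the others, and *Egfl8* stood at 21.4 and 2.90 to 15.5. *Cxcl14* (36.2) and the creatine synthesis gene *Gatm* (26.1) were high in subcluster 1 beside the myelin genes. *Jun*, a gene that opposes the myelin programme, stood at 19.2 there against 9.96 to 12.9 UMIs per 10,000. Their median depth of 2908 UMIs was below that of the other subclusters, 3967 to 4783.

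**Figure D3:**
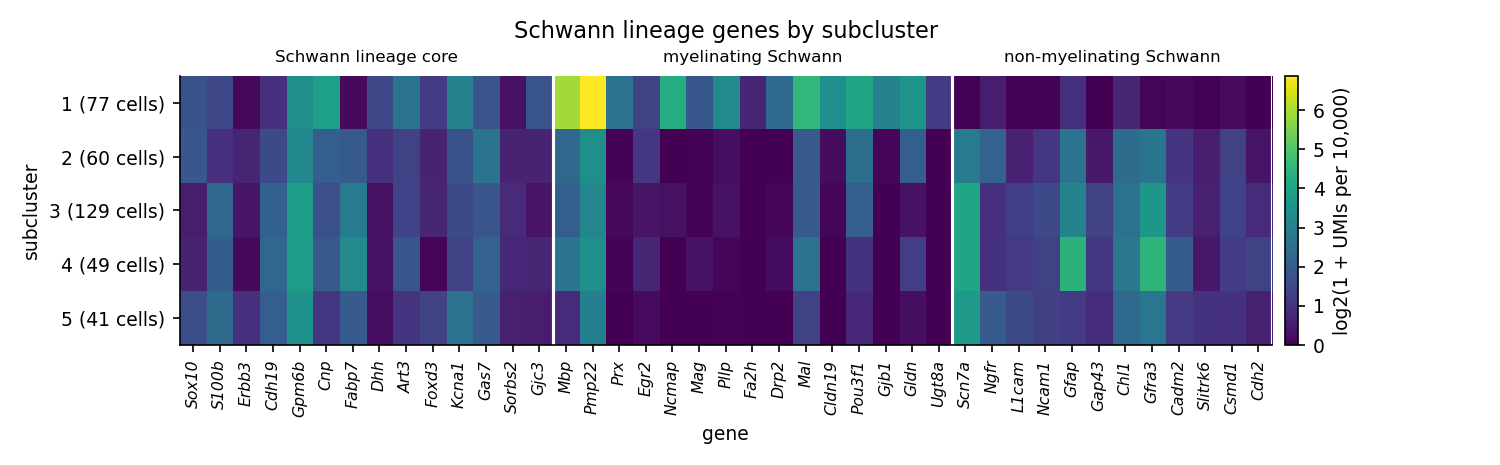
Level of the genes of the 3 Schwann lists in the 5 subclusters of the glial cells, as log2(1 + UMIs per 10,000). The myelinating genes are bright in subcluster 1 (77 cells), and the non-myelinating genes in subclusters 2 to 5, while *Gpm6b* is present in all 5.

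Since the myelin genes were high in the same cells, their promoters were searched for the letters ACAAAG and AACAAT, core forms of the sites that SOX factors bind, on both strands and from 250 bases before to 50 bases after the start (RefSeq, GRCm38.p6). Of the 15 myelinating genes 11 had a promoter in the table, and 2 of these (18.2%), *Mag* and *Gjb1*, held a match, against 7345 of 27025 promoters (27.2%). Of the leading genes of subcluster 1, the connexin gene *Gjb1* (chrX:101376126-101376425, plus strand) held 2 matches, in capitals, and *Ncmap* (chr4:135398178-135398477, minus strand), which codes for a membrane protein of non-compact myelin, held none.
Gjb1: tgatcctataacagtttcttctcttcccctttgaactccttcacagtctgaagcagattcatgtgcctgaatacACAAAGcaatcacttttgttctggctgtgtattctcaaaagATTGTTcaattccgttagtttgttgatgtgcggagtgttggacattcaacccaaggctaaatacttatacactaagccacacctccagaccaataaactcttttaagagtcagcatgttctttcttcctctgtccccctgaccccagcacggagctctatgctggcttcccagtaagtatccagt
Ncmap: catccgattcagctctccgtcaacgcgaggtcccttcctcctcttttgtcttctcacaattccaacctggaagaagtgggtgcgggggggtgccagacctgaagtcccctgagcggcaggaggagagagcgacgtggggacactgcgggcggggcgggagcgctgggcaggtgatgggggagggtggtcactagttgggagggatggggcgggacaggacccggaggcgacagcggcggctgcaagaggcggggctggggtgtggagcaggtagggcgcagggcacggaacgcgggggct
A match is a description of the letters and not a binding site. Only the first listed promoter of each gene was used, and whether the glial cells start the gene there was not tested.

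Subclusters 2 to 5, with 60, 129, 49 and 41 cells, made up the rest. The leading genes of subcluster 2 included *Prdm8* and *Btc*, and it had *Sox10* at 2.62 UMIs per 10,000 and *Ngfr* at 3.49, against 2.13 and 2.90 in subcluster 5, without the same order in every library, and *Scn7a* at 5.96. Subcluster 3 was led by *Apod*, *Hspa1a* and *Col20a1*, had *Scn7a* at 15.5 and held the dissociation stress gene *Hspa1a* at 4.49 against at most 0.911 in the other subclusters. Subcluster 4 was led by *Irf7* and *Tnc* and had the most *Gfra3* (20.5, 28.8 and 7.22 by library) and *Gdnf* (11.0, 9.46 and 9.98) in every library. It had the most *Gfap* (21.4 and 26.3) and *Ccl2* (18.003 and 31.7) in both controls but not in *Angpt1*ΔNC, where they were at 5.61 and 0 against 6.89 and 6.00 in subcluster 3. Subcluster 5 was led by *Myadm*, *Klhl12* and *Igfbp3*, with *Col4a1* at 5.31 and *Postn* at 10.1, and it nearly lacked *Mbp* (0.751). By library its *Col4a1* stood at 2.77, 4.19 and 13.2, the last from 7 cells, and in control replicate 1 subcluster 2 had more (3.08).

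The composition by subcluster differed between libraries within wide intervals. Subcluster 1 held 22 cells of control replicate 1 (15.9%, 95% exact interval 10.3 to 23.1), 38 of control replicate 2 (25.7%, 18.9 to 33.5) and 17 of *Angpt1*ΔNC (24.3%, lower bound 14.8), so the mutant share lay between the controls. Subcluster 2 made up 22.5%, 16.2% and 7.14% (2.36 to 15.9) and subcluster 3 made up 34.8%, 32.4% and 47.1% (35.1 to 59.4). In both, *Angpt1*ΔNC lay outside the controls, but its interval overlapped theirs, and the shares were not tested over libraries.

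Between genotypes, 61 of 6658 tested genes (0.916%) passed edgeR's quasi-likelihood test on UMIs summed over the glial cells of each library (Benjamini-Hochberg adjusted p under 0.05), 30 higher (0.451%) and 31 lower (0.466%) in *Angpt1*ΔNC. At an unadjusted p under 0.05 there were 683 (10.3%). All 61 lay outside both controls, as did 77.3% of all tested genes. The 20 named genes, 10 in each direction with a log2 difference of at least 1, included the interferon response gene *Ifit3*, the glycogen enzyme gene *Ugp2*, the metallothionein gene *Mt3* and the lipid carrier gene *Apod* among the higher ones, and the protease inhibitor gene *Cst3*, the artemin receptor gene *Gfra3* and the immune regulator gene *Cd200* among the lower ones. The test has 1 residual degree of freedom and takes the lone *Angpt1*ΔNC library to vary like the controls. DESeq2 called 4 genes (0.0601%), *Xist*, *Gm10260*, *Ifit3* and *Cst3*, and 61 of the 61 had the same sign in it.

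**Figure D4:**
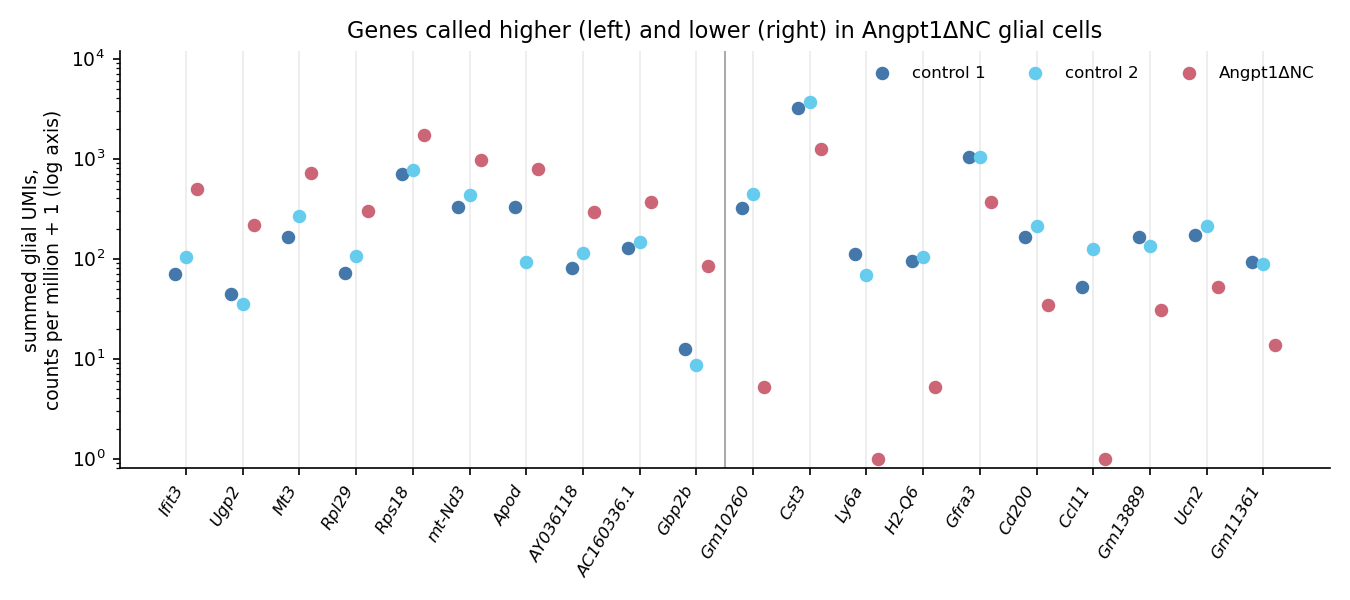
Summed glial UMIs of the 20 named genes in each library, as CPM plus 1 on a log axis, with the 10 genes called higher in *Angpt1*ΔNC on the left and the 10 called lower on the right. Each point is 1 library, and the *Angpt1*ΔNC point lies outside both control points for every gene, at 0 UMIs for *Ly6a* and *Ccl11*.

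*Gfra3*, the co-receptor through which Schwann cells and sensory neurons bind artemin, was the 1 gene of the 12 non-myelinating Schwann genes that passed the test. It reached 1042, 1027 and 367 CPM, from 548, 668 and 87 UMIs. The controls were close and *Angpt1*ΔNC was well below both, a log2 difference of -1.50 (SE 0.25, edgeR adjusted p = 0.000458, DESeq2 adjusted p = 0.0822). Carried by 100, 90 and 33 cells, it did not rest on a single cell, the highest of which gave 2.92%, 3.89% and 10.3% of the UMIs of a library. Without its highest cell in each library the log2 difference was -1.48, but *Gfra3* was no longer called. After thinning every cell to 1000 UMIs, 69 of 138 (95% exact interval 41.4 to 58.6%), 46.6% (38.4 to 55.0) and 18.6% (10.3 to 29.7) of the glial cells were positive, against none of the epithelial cells of both controls and 0.110% in *Angpt1*ΔNC. The separation of these intervals depended on depth. At 2000 UMIs the shares were 66.9%, 58.7% and 45.8%, and the *Angpt1*ΔNC interval (32.7 to 59.2) overlapped those of both controls. Without thinning, the *Angpt1*ΔNC interval (35.1 to 59.4) overlapped that of control replicate 2 only. *Angpt1*ΔNC had the lowest share at each depth. The *Angpt1*ΔNC level was below both controls in each of the 4 subclusters that express *Gfra3*, of which *Angpt1*ΔNC held 5, 33, 8 and 7 cells. This was not particular to *Gfra3*, as *Egfl8*, *Chl1* and *Cdh19* were below both controls in every subcluster. *Egfl8* stood at 6.24, 6.96 and 4.17 UMIs per 10,000 in subcluster 3. Its log2 difference was -0.55 over all glial cells, without a call, and -0.90 without subcluster 1. In subcluster 3, the largest, *Gfra3* stood at 13.6, 13.5 and 5.10 UMIs per 10,000, and in subcluster 4 at 20.5, 28.8 and 7.22. Without subcluster 1 the log2 difference was -1.40 (edgeR adjusted p = 3.69e-05), and in cells typed male by a Y-linked UMI, 63, 93 and 14 in number, it was -1.15 (edgeR adjusted p = 0.0298).

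**Figure D5:**
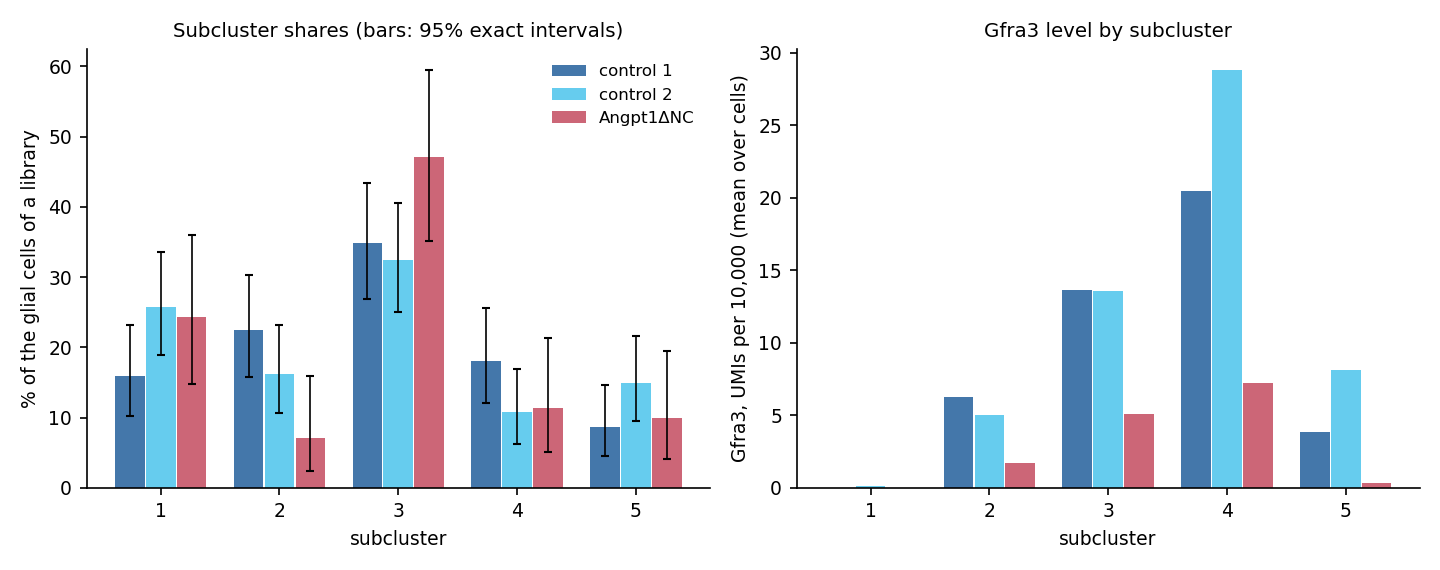
Left, share of the glial cells of each library in subclusters 1 to 5, in percent, with exact 95% intervals (counting error only); right, mean *Gfra3* level in UMIs per 10,000 in the same subclusters and libraries, without error bars since each bar is 1 library. *Gfra3* was lower in *Angpt1*ΔNC than in both controls in subclusters 2 to 5 and nearly absent from subcluster 1, with 1 UMI in control replicate 2.

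The other 11 Remak genes gave no call over all glial cells, and 4 of them, *Chl1*, *Gap43*, *Gfap* and *Cadm2*, passed in at least 1 alternative. Of all tested genes, 94 of 13489 were called without a filter and 77 of 4833 in equal numbers of cells. In male-typed cells 61 of 4739 were called, and without subcluster 1 it was 93 of 6046. *Chl1*, an adhesion gene, had 500, 400 and 223 CPM (log2 difference -1.01, SE 0.27, edgeR adjusted p = 0.0650), and it passed without a filter on low counts (edgeR adjusted p = 0.0230) and in equal numbers of cells (edgeR adjusted p = 0.0261). At 1000 UMIs a cell, *Chl1* was found in 33.3%, 24.3% and 17.1% of glial cells and in 4.65%, 3.16% and 0.878% of epithelial cells, lowest in *Angpt1*ΔNC in both, and the part of RNA from other cells in this was not tested. *Ngfr* had 198, 151 and 84.3 CPM (-1.04, SE 0.35, edgeR adjusted p = 0.198). *Gap43*, a growth cone gene, differed the other way, at 83.7, 64.5 and 160 CPM (1.12, SE 0.32, edgeR adjusted p = 0.0789), and it passed in equal numbers of cells (1.35, edgeR adjusted p = 0.0343) and without subcluster 1 (1.22, edgeR adjusted p = 0.0221). *Gfap* had 778, 725 and 535 CPM (-0.49, SE 0.24, edgeR adjusted p = 0.471). In the male-typed cells, of which *Angpt1*ΔNC held 14, *Gfap* was lower (-1.31, edgeR adjusted p = 0.0250) and the adhesion gene *Cadm2* higher (1.77, edgeR adjusted p = 0.00239). *Scn7a* stood at 964, 1073 and 1074 CPM (0.08, SE 0.22). At an unadjusted p under 0.05 there were 5 of the 12 genes, 4 of them lower, against 10.3% of all tested genes, and their median log2 difference was -0.01, close to that of all tested genes (-0.02).

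Of the 14 tested myelinating genes reported here, none passed the test in edgeR over all glial cells, where 0.916% of all tested genes passed. At an unadjusted p under 0.05 there were 2 of the 14, against 10.3% of all tested genes. *Gjb1* passed in male-typed cells (30, 105 and 1 UMIs, edgeR adjusted p = 0.0191). *Mbp* had 61.3, 69.0 and 38.7 UMIs per 10,000 in subcluster 1, and over all glial cells its 1278, 1850 and 1074 CPM gave a log2 difference of -0.54 (SE 0.23, edgeR adjusted p = 0.382). *Mbp* was lower and called without subcluster 1, at 4.13, 3.32 and 1.73 UMIs per 10,000 (log2 difference -1.09, edgeR adjusted p = 0.0296), and its log2 difference was -0.16 in equal numbers of cells and 0.03 in male-typed cells. *Pmp22* had 138, 108 and 107 UMIs per 10,000 in subcluster 1 and a log2 difference of 0.01 over all glial cells (edgeR adjusted p = 0.996). The median log2 difference of the 14 genes was 0.02, from -0.83 for *Ugt8a* to 0.69 for *Cldn19*. *Mt3*, with 7, 9 and 2 UMIs elsewhere in the glia, stood higher in subcluster 1 of *Angpt1*ΔNC, at 10.7, 10.1 and 27.8 UMIs per 10,000, with 15 of 17 *Angpt1*ΔNC cells positive against 17 of 22 and 23 of 38. Over all glial cells its log2 difference was 1.72 (SE 0.25, edgeR adjusted p = 5.86e-05), and in the male-typed cells it was 0.50 (edgeR adjusted p = 0.737). The other metallothionein genes *Mt1* (log2 difference 0.79) and *Mt2* (0.85) were called higher too, with edgeR adjusted p = 0.0164 and 0.0201.

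*Cst3* (chr2:148871722-148875692), which codes for the secreted inhibitor cystatin C, was the most abundant of the named genes, at 3210, 3653 and 1247 CPM. The log2 difference was -1.46 (SE 0.22, edgeR adjusted p = 8.77e-05, DESeq2 adjusted p = 0.00748). *Angpt1*ΔNC was lower in subcluster 1, with levels of 10.1, 12.3 and 6.12 UMIs per 10,000, and in the other glial cells, with 32.0, 44.8 and 13.1. *Cd200*, the ligand of an inhibitory receptor on myeloid cells, was found in 52 of 138, 74 of 148 and 7 of 70 cells, with 164, 209 and 33.7 CPM (-2.46, SE 0.42, edgeR adjusted p = 0.000624). *Ucn2*, a peptide of the corticotropin-releasing family, stood at 171, 214 and 50.6 CPM, but its log2 difference of -1.93 (edgeR adjusted p = 0.00475) was -0.23 in male-typed cells (edgeR adjusted p = 0.910). Of the other lower genes, *Ly6a* had 58, 44 and 0 UMIs and was at least 7.04-fold lower against 3 UMIs in *Angpt1*ΔNC, *H2-Q6* had 49, 67 and 1 UMIs, and *Ccl11* had 27, 80 and 0, of which 77.8% and 52.5% came from 1 cell of each control. *Gm13889* also had 43 of its 86 and 46 of its 87 control UMIs in 1 cell each.

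*Ifit3* (chr19:34583531-34588731), an interferon-induced gene, had 68.5, 103 and 493 CPM, a log2 difference of 2.50 (SE 0.26, edgeR adjusted p = 6.26e-08, DESeq2 adjusted p = 0.00285). It was found in 17 of 116, 25 of 110 and 30 of 53 glial cells outside subcluster 1. Within subcluster 1 it was found in 2 of 22, 2 of 38 and 0 of 17 cells, so it was not higher in *Angpt1*ΔNC there. *B2m*, the light chain of MHC class I, rose as well (871, 874 and 1702 CPM, log2 difference 0.96, edgeR adjusted p = 0.0122). These were the called genes of the 14 in the MHC class I and interferon list, where 0.916% of all tested genes were called. The rest of the list gave no call over all glial cells, among them *Ifit1* at 270, 120 and 404, *Isg15* at 1149, 582 and 1032 and *H2-K1* at 991, 919 and 775 CPM. *Ifit1* was called higher with RLE factors, without a filter, in male-typed cells and without subcluster 1. The median log2 difference of the list was 0.23. *Gbp2b*, a guanylate binding protein gene, rose, with 6, 5 and 20 UMIs (log2 difference 3.13, edgeR adjusted p = 0.00254). *Apod*, a gene of sheath cells that leads subcluster 3, had 327, 92.2 and 788 CPM (log2 difference 1.94, edgeR adjusted p = 0.000580, DESeq2 adjusted p = 0.999), with a log2 difference of 1.27 from control replicate 1 and 3.08 from control replicate 2. *Ugp2*, which makes UDP-glucose, stood at 43.7, 33.8 and 215 CPM (2.48, SE 0.32, edgeR adjusted p = 7.12e-06), with 16, 16 and 17 positive cells, but at 0.38 on the log2 scale in male-typed cells (edgeR adjusted p = 0.916).

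Of the 20 named genes, 7, namely *Rpl29*, *mt-Nd3*, *AY036118*, *AC160336.1*, *Gm10260*, *H2-Q6* and *Gm11361*, shared over 50% of the 31-base words in the last 300 bases of their transcripts with other annotated genes, so that reads may be split between copies and their values are uncertain. *Rps18* shared 26.1%, and of *Gm11361* 88.5% were in *Rps18*. In all other kept cells the log2 differences of *Rps18* (1.52), *Rpl29* (2.20), *mt-Nd3* (1.36), *Gm10260* (-7.94) and *Gm11361* (-3.74) had the same sign as in glial cells.

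The gene lists mostly stayed without calls, where 0.916% of all tested genes were called. Over all glial cells, none of the 14 Schwann lineage core genes passed (median log2 difference -0.03, from -1.04 for *Foxd3* to 0.92 for *Erbb3*), nor any of the 11 tested node and adhesion molecules (0.31), the 15 basal lamina genes (-0.07), the 19 tested genes of myelin lipid synthesis (0.27), the 9 tested neuregulin and axon signal receptors (0.19) or the 6 tested repair genes (-0.18). Some of their members passed in the male-typed cells, where *Angpt1*ΔNC held 14 cells and 61 of all 4739 tested genes were called. The potassium channel gene *Kcna1* of the core list was lower there (62, 181 and 3 UMIs, log2 difference -2.61, edgeR adjusted p = 0.00335), as was the growth factor gene *Fgf5* of the repair list (61, 97 and 0 UMIs, edgeR adjusted p = 0.000293). The sterol synthesis genes *Hmgcs1* (1.76), *Fdps* (2.32) and *Idi1* (1.46) were higher there, with edgeR adjusted p = 0.000876, 2.05e-06 and 0.0113, and *Hmgcs1* also passed without subcluster 1 (1.35, edgeR adjusted p = 0.0203). Of the 14 tested genes for secreted factors *Apod* was called, and in equal numbers of cells *Ptn* was called higher (0.97) and *Ccl2* lower (-1.10). The 16 dissociation stress genes had a median of -0.59, with 10 of 16 below 0, 10 at an unadjusted p under 0.05, 8 of them lower, against 10.3% of all tested genes, and none called. In the male-typed cells *Ier3*, *Junb* and *Socs3* of this list were called lower and *Fosb* higher (log2 differences -1.34, -0.97, -1.18 and 1.32). Of the 9 tested reactive glia genes 6 were below 0, none called over all glial cells. Among markers of other cell types, *Rgs5*, a pericyte gene, was called, with 21, 36 and 0 UMIs from 3, 4 and 0 cells. The stromal gene *Dcn* was higher (log2 difference 1.20) and just missed a call. It was called higher with RLE factors, without a filter and without subcluster 1. The stromal gene *Mgp* just missed (log2 difference -2.18, edgeR adjusted p = 0.0540) and was called with RLE factors, without a filter, in equal numbers of cells, in male-typed cells and without subcluster 1, but not by DESeq2 or without its highest cell in each library (-0.81). The summed levels of these markers in glial cells were low, at 2.36, 1.49 and 1.15 UMIs per 10,000 for the 8 melanocyte genes against 75.5, 70.8 and 59.8 in all other kept cells, 17.9, 15.1 and 13.7 for the 8 stromal genes against 120, 132 and 162, and 0.162, 0.916 and 0.549 for the 8 macrophage genes. The 5 photoreceptor genes summed to 0.952, 0.0492 and 0.0352, and their part in the differences was not tested.

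Whether a difference was larger in glial cells than elsewhere was tested by the interaction of genotype with cell class, in a fit over glial cells and all other kept cells with the library as block. It was called for 26 of 6658 genes (0.391%), 11 (0.165%) with a higher and 15 (0.225%) with a lower difference in glial cells, and 10 of the 61 genes called between genotypes were among them. *Cst3* fell by more in glial cells than in all other kept cells, where the log2 difference was -0.57 (interaction -0.86, edgeR adjusted p = 0.00781). *Mt3* (-1.31 elsewhere, interaction 2.92, adjusted p = 0.00264 in edgeR) and *Ugp2* (-0.17 elsewhere, interaction 2.67, edgeR adjusted p = 0.000304) differed from the rest as well, as did *Ucn2*, which was 1.39 higher elsewhere on the log2 scale. *Ly6a* was absent from *Angpt1*ΔNC glial cells and differed by 0.09 elsewhere. *Scn7a* was also among them. Its log2 difference was 0.08 in glial cells (edgeR adjusted p = 0.937), and it was 1.88 higher in all other kept cells of *Angpt1*ΔNC, where its level was 0.0495, 0.0459 and 0.144 UMIs per 10,000, far below the 9.49, 10.5 and 10.7 of glial cells (interaction -1.78, edgeR adjusted p = 0.000505). *Gfra3* was not called for the interaction (-1.01, edgeR adjusted p = 0.742). All other kept cells held at most 0.00207 UMIs per 10,000 of it in a library. In all other kept cells, edgeR called none of 17323 genes (0%) between genotypes, with 3233 at an unadjusted p under 0.05. That fit had 1.99 prior degrees of freedom, against 34.5 in glial cells, so it had little power to call a gene. Its lack of calls does not show that the genotypes were alike elsewhere.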

How the data were processed

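The members, gene lists and tests were chosen with earlier results of these data known. The authors aligned droplet libraries (10x Genomics Chromium) to mm10 with Cell Ranger (2.1.1 in the submitters' processing notes) and labelled the cells they kept with Seurat 3.1.3, after integration of the libraries with *Angpt1* and sex-specific genes left out. They deposited UMI counts per gene and called cell, without normalization, and tables of kept cells whose cluster label was the only column used (0 columns of per-sample values were left unmapped). Here the 356 cells labelled 10 were matched by barcode to the count matrices. Counts were summed per library, giving 537535 (control replicate 1), 661429 (control replicate 2) and 249660 (*Angpt1*ΔNC) UMIs, and filtered and tested with edgeR 4.0.16 (filterByExpr, TMM, glmQLFit, R 4.3.3). Adjusted p-values are Benjamini-Hochberg over all tested genes. The scripts were tested on simulated data.

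The interaction was fitted on glial sums and sums of all other kept cells, with library as block. Alternatives were DESeq2 1.42.0, RLE factors, no filter, equal cell numbers, male-typed cells (a Y-linked UMI, none of *Xist*), leaving out either control, and 2 added after seeing the data (without subcluster 1, and without each gene's highest cell in each library). Leading genes were ranked by the fold of the mean level with 0.1 added, among genes detected in at least 25% of glial cells. Subclusters are Leiden clusters in scanpy 1.11.5 (2000 variable genes, 15 components, resolution 0.5), and the authors had removed putative doublets before labelling. Named genes are the 20 leading genes, the 10 with the smallest adjusted p in each direction with an absolute log2 difference of at least 1 (sex-linked genes aside), the angiopoietin pathway, members of the 29 lists and the markers *Mbp*, *Gfap* and *Scn7a*. The leading genes of subclusters, *Mt1* and *Mt2* fall outside this rule and were named after their values were seen. Where a group had no UMI, its fold is a bound against 3 UMIs per library. Shares have exact 95% intervals (scipy 1.17.1). The libraries are pools, and the 1 residual degree of freedom comes from the 2 control pools. The p-values therefore rest on the spread between these controls, which may be technical, and on spread borrowed across genes. The lone *Angpt1*ΔNC pool adds no measure of spread. Some genes, and the results that need them, are not reported here and were left out of the gene lists, but they stay in the tables tested.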

Additional observations from a re-analysis of the deposited data

Results flagged for a closer look

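The test of the interaction between genotype and cell class found that 26 genes differed by genotype in glial cells otherwise than in all other kept cells. With edgeR adjusted p-values of the interaction, these include *Ugp2* (0.000304), *Ccl2* (0.000479), *Scn7a* (0.000505), *Ly6a* (0.00194), *Mt3* (0.00264), *Ucn2* (0.00393), *Cst3* (0.00781), *H2-D1* (0.0132), *Tagln* (0.0143), *Klk9* (0.0198), *Gm13889* (0.0256), *Serpina3n* (0.0364) and *Ptn* (0.0452). For *Scn7a*, *Klk9*, *Ptn* and *Serpina3n* the log2 difference in all other kept cells (1.88, 1.89, 1.83 and 1.58) was larger than in glial cells (0.08, 0.27, 0.79 and 0.39), and for *Tagln* and *H2-D1* all other kept cells were lower in *Angpt1*ΔNC (-1.11 and -0.91) while glial cells differed by 0.14 and -0.07. *Ccl2* was -0.62 in glial cells and 0.88 elsewhere. The makeup of all other kept cells differs between libraries, and its part in these differences was not tested. With melanocyte clusters 8 and 9 as the reference, 13 of the 26 genes were called again.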

How the results depend on the processing

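The number of called genes turned on the test: 61 with edgeR, 4 with DESeq2, 94 without a filter on low counts, and, chosen after seeing the data, 93 without subcluster 1 and 2 (*Xist* and *Gm10260*) without each gene's highest cell in each library. That last fit had 6.53 prior degrees of freedom, against 34.5 over all cells, and 59 of the 59 called genes it tested had the same sign. The fits without a filter, in equal numbers of cells, in male-typed cells and without subcluster 1 had infinite prior degrees of freedom. They took the spread of each gene from the trend over genes alone, so the calls of these alternatives are less firm than their p-values read. Of the 61 genes, 22 were called again in male-typed cells. The interaction gave 26 genes, 166 against melanocytes and 48 without a filter. The relative share of glial cells was 0.680 to 0.710 of a single control, against 0.694 of their mean. Definitions of glial cells by UMIs of marker genes are not reported here. Of the 20 leading genes, 12 remained with 1 added in place of 0.1. *Scn7a* was found in 48.9% of cells, as a mean of libraries, when thinned to 1000 UMIs, in 65.3% at 2000 and in 69.3% without thinning. RLE factors gave 80 genes, equal numbers of cells 77 and male-typed cells 61. Among 41 named genes, DESeq2 kept the direction but not the call of 20, and leaving out either control, which leaves 1 library against 1 and no test, moved the log2 difference of 6. The 70 *Angpt1*ΔNC cells limit every mutant value. No paired analysis was possible because the groups share only 1 replicate number, which follows accession order.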
